A study of Homo sapiens with 4 samples.

Results

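AHNAK, the annexins ANXA1 and ANXA2, the small calcium-binding proteins S100A6, S100A10 and S100A11, the galectin LGALS1 and the filament protein VIM are described here as a group of genes for proteins of membrane scaffolds and the cytoskeleton. The group was chosen by the difference of AHNAK between JG342 and DMSO, one of the largest falls, and AHNAK's companions were added by symbol. Of the 10 genes listed, 8 had a row among the 16057 genes of the table, and the average of the 4 libraries reached 1 TPM for all 8 (TPM is a transcript level per length, scaled to a constant library total). S100A4 and AHNAK2 matched no row and were not analysed here. Since that comparison chose the group, the differences of these 8 genes are given as a description, with a standard error (SE) and without a p-value. Levels are in TPM, and differences are on the log2(TPM + 1) scale.

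All libraries came from MM.1S, a line grown from a human multiple myeloma. The cells were kept in RPMI-1640 with fetal bovine serum and glutamine and received either JG342, an allosteric inhibitor of HSP70 chaperones, at 350 nM, or the solvent DMSO, and total RNA was sequenced after 26 h. Each treatment had 2 libraries, numbered 1 and 2, described by the submitters as biological duplicates. One cell line, one dose and one time limit the model.

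Annexins are proteins that bind acidic phospholipids when calcium rises, and they gather at membranes that are being repaired or remodelled. S100 proteins are small calcium sensors that work as dimers and dock onto annexins: an S100A10 dimer joins a pair of ANXA2 molecules, and AHNAK, a giant protein of repeated units, binds that complex and links it to cortical actin. Galectins bind sugars on glycoproteins, and vimentin builds the intermediate filaments of mesenchymal and blood cells. The plasma cell genes chosen as markers fit the label: all 11 were above 0 in every library, with mean levels from 26.2 (CD38) to 7863 TPM (JCHAIN). The fibroblast markers, relevant because fibroblasts are rich in VIM, LGALS1 and S100 transcripts, summed to 0.16 to 0.22 TPM with DMSO and 0.13 to 0.19 TPM with JG342. The summed T cell, monocyte, epithelial and endothelial markers overlapped between treatments, at no more than 84.8 TPM. The erythroid sum was 7.71 to 8.63 TPM with DMSO and 10.95 to 11.4 TPM with JG342, nearly all of it HBB. The plasma cell sum was lower with JG342, at 10450 to 11210 TPM against 15160 to 15440 TPM, and JCHAIN was at 9907.16 and 10383.46 TPM with DMSO and at 5731.52 and 5430.98 TPM with JG342. Without JCHAIN, the other 10 plasma cell markers summed to 4775 to 5532 TPM with DMSO and 5023 to 5479 TPM with JG342. Among them, the transcription factors IRF4 (352.88 and 352.64, then 588.51 and 615.17 TPM) and PRDM1 (176.5 and 154.02, then 220.17 and 204.6 TPM) were higher in both JG342 libraries. The transcription factor MAF (323.28 and 320.44, then 270.2 and 202.99 TPM) and TNFRSF17 (760.95 and 581.5, then 517.49 and 462.75 TPM) were lower in both. For the rest of these 10 markers the treatments overlapped. The part of these shifts in the results was not tested. Each library summed to between 994463 and 994718 TPM, and read depth is unknown because TPM does not keep it. A lower level in a bulk sample can come from fewer cells that express a gene or from less RNA per cell, and these cannot be told apart.

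The promoters of the annexin pair and of S100A11 are shown because ANXA1 and ANXA2 lay far apart in their difference between treatments, and S100A11 was the most abundant of the group. They come from RefSeq on GRCh38.p14, 5′ to 3′, with capitals marking the named motif. The stretches are chr9:73151832-73151861 on the plus strand for ANXA1, chr15:60397990-60398019 on the minus strand for ANXA2, both around a TATA box, and chr1:152037036-152037254 on the minus strand for S100A11, with a GC box.
ANXA1: ccTATAAAatcagaagcccaagtctccact
ANXA2: ggTATAAAagccccacccaggccagccggc
S100A11: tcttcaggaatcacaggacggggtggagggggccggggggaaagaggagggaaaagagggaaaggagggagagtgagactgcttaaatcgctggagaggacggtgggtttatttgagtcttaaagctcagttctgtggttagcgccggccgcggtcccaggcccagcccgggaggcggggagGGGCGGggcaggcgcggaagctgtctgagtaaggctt
Both annexins had 1 match to TATAAA ending 25 bases before the RefSeq start, and S100A11 had none in the 250 bases before its start. That motif was found in 10.7% of 35116 RefSeq promoters of the same length, on either strand. ANXA1 and ANXA2 differed in base composition: G and C made up 38.4% of the 250 bases before the start in ANXA1 and 78.0% in ANXA2. The GC box GGGCGG, present in 42.6% of all promoters, had 3 matches in ANXA2, 1 in S100A11 and none in ANXA1. The AP-1 motif TGANTCA, in 6.57% of all promoters, matched once in ANXA2 and not in ANXA1 or S100A11. The letters TGATGNAA of the CARE motif bound by ATF4 (3.14% of promoters), GGAATG of TEAD factors (11.9%) and TGACGTCA of the CRE (1.65%) were not found in any of the 3 windows. GENCODE 29 annotates an upstream start for some transcripts of both annexins, so which start these cells used is not known from the table.

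With DMSO, the 8 genes fell into 4 abundant and 4 far less abundant transcripts. S100A11 ranked 93rd among the 12042 genes that averaged 1 TPM or more and were fitted, VIM 104th, LGALS1 125th and ANXA2 202nd. S100A10 ranked 4375th, S100A6 5197th, AHNAK 7679th and ANXA1 8875th. In that order the ranges of neighbouring genes over the 2 DMSO libraries did not overlap, except those of S100A10 and S100A6. Thus S100A11 stood at 1483.29 and 1427.87 TPM, while S100A10, the partner of ANXA2, stood at 34.04 and 33.41 TPM. ANXA2 transcripts outnumbered those of S100A10 by 17.7 and 19.4 to 1 in DMSO replicates 1 and 2, and by 18.97 and 22.04 to 1 in JG342 replicates 1 and 2.

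**Figure D1:**
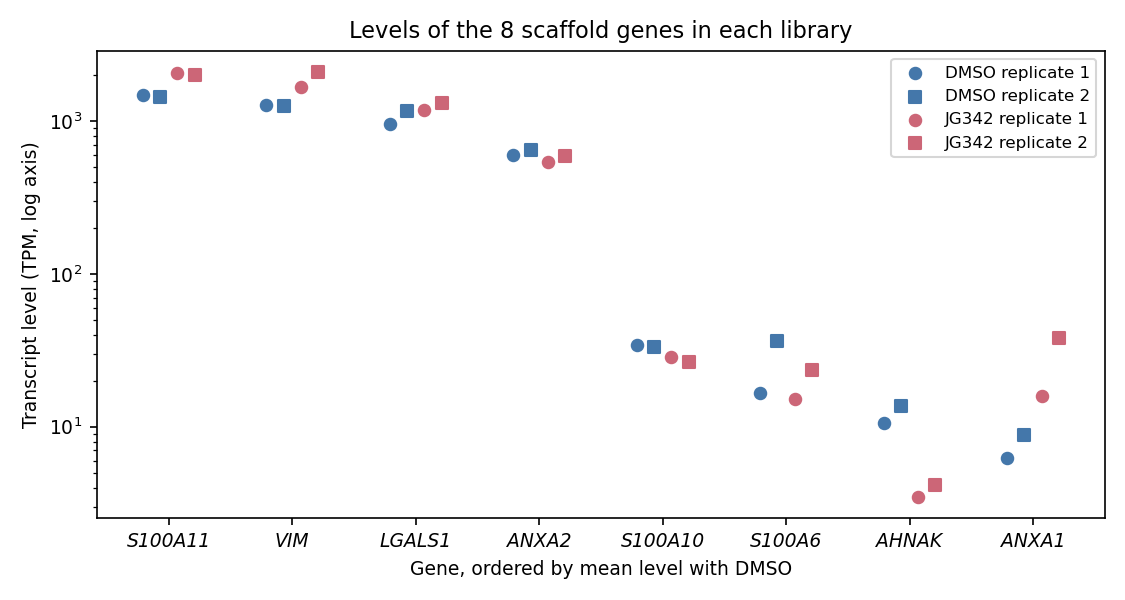
Level of each of the 8 genes (TPM, log axis) in the 2 DMSO libraries (blue) and the 2 JG342 libraries (red), circles for replicate 1 and squares for replicate 2, with genes ordered by their mean level with DMSO. AHNAK lies lower and ANXA1 higher in both JG342 libraries, while the S100A6 points of the treatments interleave.

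AHNAK, the giant scaffold, was the lowest of the group after JG342. Its level was 10.57 and 13.61 TPM in DMSO replicates 1 and 2 and 3.49 and 4.13 TPM in JG342 replicates 1 and 2. Both JG342 libraries were below both DMSO libraries, and the mean with JG342 was 0.315 times that with DMSO. On the log2(TPM + 1) scale, which understates changes of low transcripts, the difference was −1.44 ± 0.18 SE. With a pseudocount of 5 in place of 1 it was −0.95, and with 0.1 it was −1.63. It was −1.37 between the libraries numbered 1 and −1.51 between those numbered 2. Of the 12042 fitted genes, AHNAK had the 12th-lowest difference. Of the 2019 that passed an adjusted p of 0.05 in the limma fit and averaged 5 TPM or more, it had the 5th-lowest, and the lowest was −1.77. AHNAK reached that average through the DMSO libraries, with means of 12.09 TPM with DMSO and 3.81 TPM with JG342. These ranks follow from how the group was chosen and support nothing. The GENCODE 29 transcript matching its accession (NM_001346445) is 18787 nt long, and no near-identical copy was found for it.

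The annexin pair had differences of opposite sign. ANXA1, a phospholipid-binding protein known as a mediator of glucocorticoid action against inflammation, was at 6.25 and 8.85 TPM with DMSO and at 15.85 and 37.9 TPM with JG342. Every JG342 value was above every DMSO value, but the JG342 libraries differed 2.39-fold from each other, a larger gap on the log2 scale than that of 99.7% of the fitted genes. The difference was 1.60 ± 0.33 SE, 1.22 between the libraries numbered 1 and 1.98 between those numbered 2, and it was 1.0 without JG342 replicate 2. With DMSO, ANXA1 was below AHNAK, at 0.591 and 0.650 ANXA1 transcripts per AHNAK transcript, whereas with JG342 it was above, at 4.54 and 9.18. ANXA2 was at 602.63 and 647.91 TPM with DMSO and at 539.72 and 587.24 TPM with JG342. Its groups did not overlap, and the difference was small, −0.15 ± 0.09 SE. An ANXA2 pseudogene, ANXA2P2, matches 70.6% of its transcript at 98.4% identity, so the ANXA2 level may hold reads of that copy or lose reads to it.

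The S100 genes also had differences of both signs. S100A11, a dimer that binds ANXA1, was at 1483.29 and 1427.87 TPM with DMSO and at 2068.48 and 2004.27 TPM with JG342. These groups were separate and tight, with a difference of 0.48 ± 0.09 SE (log2 scale), 0.48 and 0.49 in the libraries numbered 1 and 2. S100A10, the ANXA2 partner that does not need calcium to bind, was at 34.04 and 33.41 TPM with DMSO and at 28.45 and 26.64 TPM with JG342, a difference of −0.28 ± 0.11 SE without overlap. S100A11 transcripts outnumbered those of S100A10 by 43.6 and 42.7 to 1 with DMSO, and by 72.7 and 75.2 to 1 with JG342. S100A6, also called calcyclin, was at 16.5 and 36.39 TPM with DMSO and at 15.14 and 23.46 TPM with JG342, so its groups overlapped. Its difference was −0.36 ± 0.32 SE, and 0.18 without DMSO replicate 2. The 2.21-fold gap between its DMSO libraries was larger on the log2 scale than that of 99.6% of the fitted genes, and in both treatments the library numbered 2 was the higher one. An unnamed gene on the opposite strand overlaps its exons in GENCODE 29, and whether reads were counted by strand is not given in the sources used here.

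LGALS1 and VIM, the abundant galectin and filament genes, were higher in both JG342 libraries. LGALS1, which encodes galectin-1, was at 962.85 and 1171.13 TPM with DMSO and at 1172.94 and 1309.21 TPM with JG342. The groups did not overlap, but DMSO replicate 2 and JG342 replicate 1 were nearly equal, and the difference was 0.22 ± 0.12 SE (log2 scale). It was 0.08 without DMSO replicate 1, 0.14 without JG342 replicate 2 and 0.36 without DMSO replicate 2. VIM was at 1280.9 and 1246.8 TPM with DMSO and at 1677.01 and 2092.81 TPM with JG342. Both JG342 libraries were above the DMSO libraries, which lay close together, and the difference was 0.57 ± 0.12 SE, with 0.39 between the libraries numbered 1 and 0.75 between those numbered 2. The antisense gene VIM-AS1 overlaps VIM exons, and reads from that strand cannot be told apart without strand information. The 8 transcripts together held 0.442% and 0.461% of all TPM with DMSO, and 0.555% and 0.612% with JG342, while AHNAK went from 0.240% and 0.297% of that sum to 0.0632% and 0.0679%. With JG342 the order of levels changed among the less abundant transcripts. The range of ANXA1 overlapped those of S100A10 and S100A6, which were apart from each other, and AHNAK lay below all of them. Among the abundant ones, the ranges of S100A11 and VIM overlapped.

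**Figure D2:**
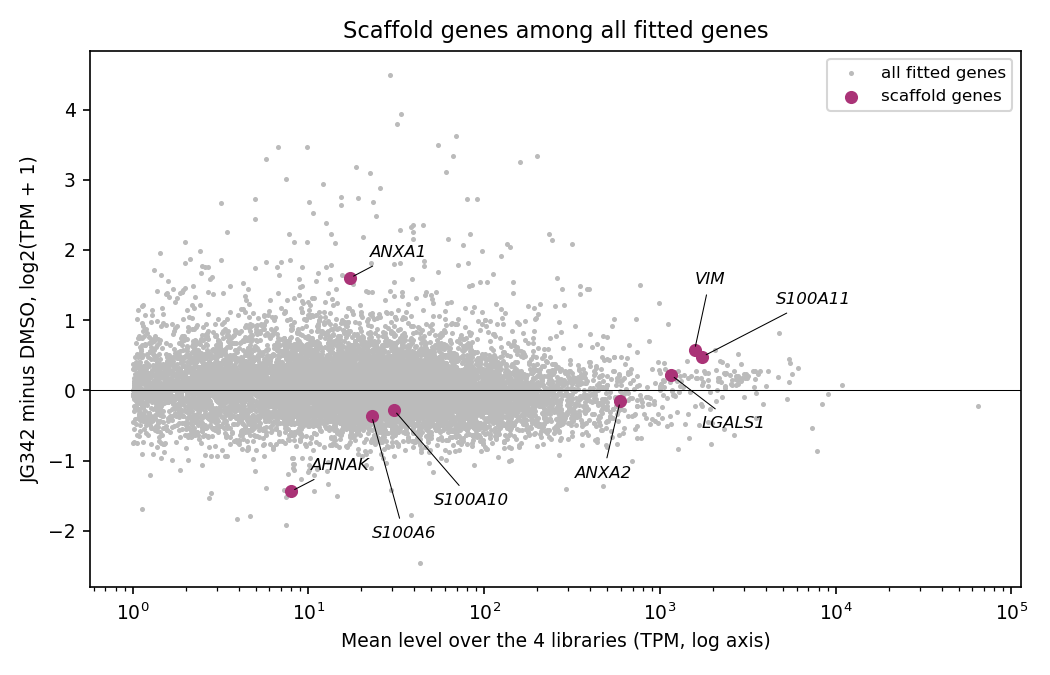
Difference JG342 minus DMSO on the log2(TPM + 1) scale against the mean level over the 4 libraries (TPM, log axis) for all 12042 fitted genes (grey), with the 8 scaffold genes in purple. AHNAK at −1.44 has the 12th-lowest difference and ANXA1 at 1.60 the 88th-highest, and the other 6 lie between −0.36 and 0.57.

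Of the 8 genes, 4 passed an adjusted p of 0.05 in the limma fit, AHNAK as lower and ANXA1, S100A11 and VIM as higher, where 18.4% of all fitted genes passed, 10.8% as higher and 7.62% as lower. These shares are printed for scale only, since the same comparison chose the group. The groups of libraries did not overlap for 7 of the 8 genes, 4 higher and 3 lower with JG342, where 62.1% of all fitted genes were without overlap, 34.0% higher and 28.2% lower. The median difference of the 8 was 0.04, and that of all fitted genes was 0.03. The count depended on the fit. AHNAK alone passed when low transcripts were not filtered out, where 5.16% of all genes passed. Leaving out either DMSO library also lowered the count, and with it the number of all fitted genes that passed. AHNAK was chosen by this same comparison, so its passing says nothing about how robust its difference is.

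The remaining members of the families were listed with earlier results of these data known, so their tests are not independent of the data. Of the 11 other annexin genes listed, 8 had a row and 6 were fitted, and 1 passed. ANXA6, an annexin with a doubled core that binds membranes and actin, was at 360.53 and 346.67 TPM with DMSO and at 296.14 and 269.6 TPM with JG342. It fell by 0.32 ± 0.09 SE (limma adjusted p 0.0433), a call that was lost when any 1 of the 4 libraries was left out (adjusted p between 0.0504 and 0.202). ANXA5, the phosphatidylserine binder used to stain dying cells, was at 226.03 and 265.04 TPM with DMSO and at 279.6 and 327.01 TPM with JG342, a difference of 0.30 ± 0.12 SE that did not pass (limma adjusted p 0.10). ANXA4, ANXA7, ANXA9 and ANXA11 differed by 0.03 to 0.29 and did not pass. ANXA3 and ANXA13 were at 0.14 TPM or lower in every library.

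Of the 17 other S100 genes, 7 had a row, 3 were fitted and none passed in the limma fit, with 1 at an unadjusted p under 0.05. S100A13, the highest of them, was at 8.80 TPM in both DMSO libraries and at 13.71 and 10.09 TPM with JG342, a difference of 0.38 ± 0.17 SE (limma adjusted p 0.148). It passed without JG342 replicate 2, at 0.59 (limma adjusted p 0.0468), and was 0.18 without JG342 replicate 1. Its exons overlap those of S100A1 on the opposite strand, so the split of reads between these genes is uncertain. Most S100 genes lie in one cluster on chromosome 1, which S100A10 and S100A11 open as neighbours in RefSeq's gene order and S100A13 and S100A1 close. Between S100A10 and S100A1 that order holds 63 protein-coding genes, of which 17 had a row and 8 were fitted; among the 16 S100 genes, 8 had a row and 5 were fitted. S100A9, S100A5 and S100A2, which lie in the cluster, did not exceed 0.46 TPM in any library. The neighbours S100A10 and S100A11 had mean levels of 33.7 and 1456 TPM with DMSO, and their differences between treatments had opposite signs.

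**Figure D3:**
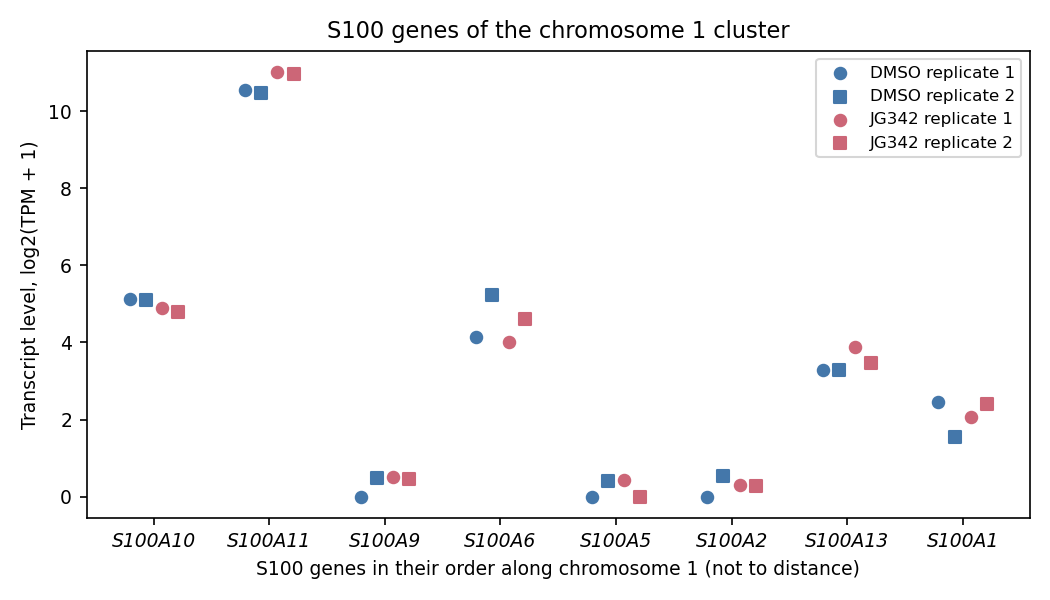
Levels on the log2(TPM + 1) scale of the 8 S100 genes of the chromosome 1 cluster with a row in the table, in the order in which they lie, for each of the 4 libraries. S100A11 stands far above its neighbour S100A10, and S100A9, S100A5 and S100A2 lie near 0.

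Of the 13 other galectin genes, 8 had a row and 3 were fitted, and none passed in the limma fit, with 1 at an unadjusted p under 0.05. LGALS8, the highest, was at 31.43 and 33.26 TPM with DMSO and at 29.3 and 28.11 TPM with JG342, a difference of −0.17 ± 0.11 SE (limma adjusted p 0.337), and LGALS3, which encodes galectin-3, differed by 0.38 ± 0.15 SE (limma adjusted p 0.119). LGALS8 shares 31.7% of its transcript with the overlapping gene HEATR1 on the opposite strand.

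**Figure D4:**
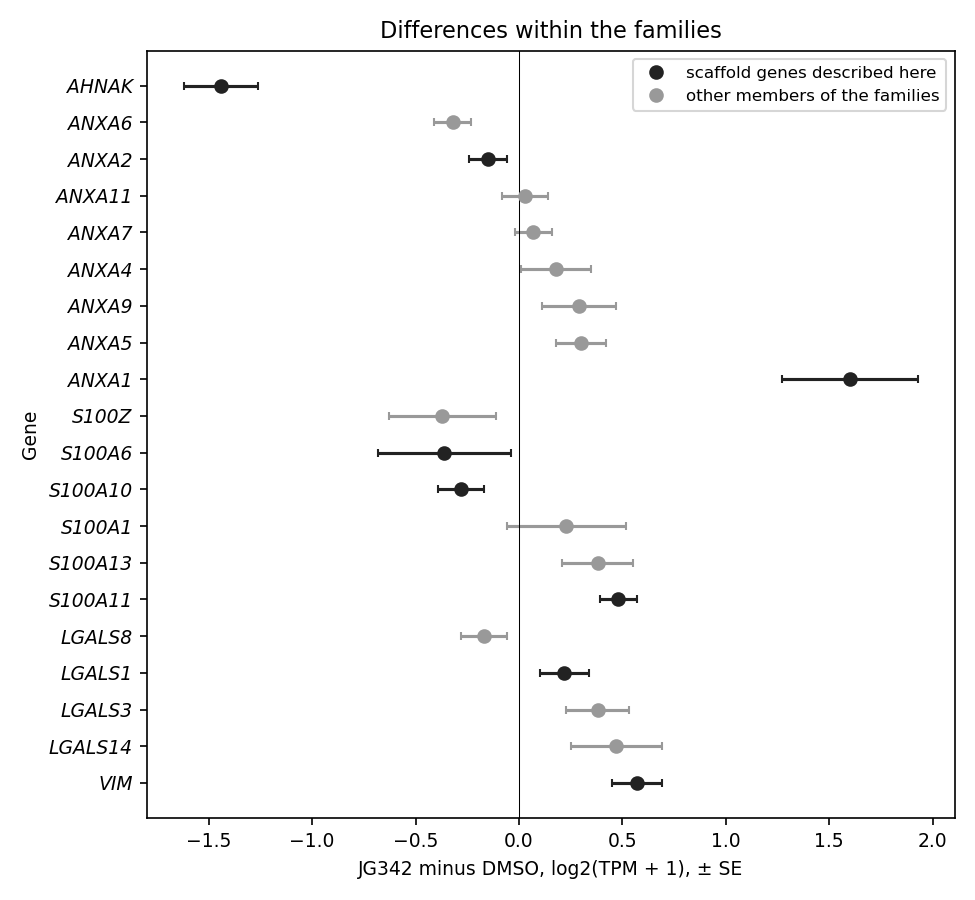
Differences JG342 minus DMSO on the log2(TPM + 1) scale with their SE, for the scaffold genes (black) and the other fitted members of the annexin, S100 and galectin families (grey). ANXA1 at 1.60 and AHNAK at −1.44 stand at the ends, and the grey points run from −0.37 to 0.47.

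Genes that share the work of these scaffolds were counted in 5 further lists. Across all 8 related lists, 154 genes were listed, 126 had a row, 87 were fitted and 15 passed, 7 higher and 8 lower. That is 17.2% of the 87, against 18.4% of all fitted genes, and both shares depended on the fit. Their median difference was −0.05 on the log2 scale.

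Among 22 fitted genes of membrane repair and calcium-dependent membrane traffic, 3 passed as higher and 2 as lower, with a list median of 0.10. CAV1, the coat protein of caveolae, fell from 84.99 and 78.07 TPM to 48.05 and 40.13 TPM, by −0.88 ± 0.12 SE (limma adjusted p 0.00233). The 3 CHMP4 paralogs, filament-forming subunits of the ESCRT-III complex that closes membrane wounds, went in different directions. CHMP4B, by far the most abundant, fell from 751.17 and 731.24 TPM to 503.48 and 513.3 TPM, by −0.54 ± 0.09 SE (limma adjusted p 0.00441). CHMP4C rose from 4.13 and 3.7 TPM to 13.01 and 9.33 TPM, by 1.29 ± 0.19 SE (limma adjusted p 0.00277), and by 0.85 with a pseudocount of 5. Its mean was 3.915 TPM with DMSO and 11.17 TPM with JG342. It thus met the 5 TPM level for named genes only through the JG342 libraries, and its being named is no separate support. The gene ZFAND1 overlaps CHMP4C on the opposite strand. CHMP4A rose from 42.37 and 36.16 TPM to 59.72 and 52.17 TPM, by 0.50 ± 0.12 SE (limma adjusted p 0.0244), and shares 46.2% of its transcript with another annotated gene. CAPN2, the large subunit of a calcium-activated protease, rose from 130.82 and 137.74 TPM to 189.25 and 189.05 TPM, by 0.49 ± 0.09 SE (limma adjusted p 0.00831). Leaving out DMSO replicate 1 took CAPN2 to a limma adjusted p of 0.0599, and CHMP4A did not pass without DMSO replicate 2 or without JG342 replicate 1 (0.170 and 0.0998).

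Of 33 fitted genes of cortical actin and its membrane linkers, 2 passed as higher and 3 as lower, with a list median of −0.16. The higher genes were both regulatory light chains of non-muscle myosin: MYL12B rose by 0.61 ± 0.11 SE, from 210.28 and 235.89 TPM to 317.53 and 365.16 TPM (limma adjusted p 0.00651), and MYL12A by 0.38 ± 0.11 SE (limma adjusted p 0.0378). These light-chain genes are neighbours whose exons overlap a common opposite-strand gene. MYH10, a non-muscle myosin heavy chain, fell by 0.46 ± 0.13 SE (limma adjusted p 0.0417), the actin-binding TAGLN2 by 0.41 ± 0.11 SE (limma adjusted p 0.0380) and the spectrin SPTBN1 by 0.38 ± 0.10 SE (limma adjusted p 0.0303). TAGLN2 has a close pseudogene, and genes on the opposite strand overlap exons of MYH10 and of SPTBN1. Leaving out 1 library ended each of these 5 calls at least once: MYL12B had a limma adjusted p of 0.0508 without DMSO replicate 1, and TAGLN2 had 0.282 and 0.126 without DMSO replicate 2 and JG342 replicate 1. MYL12A did not pass without either DMSO library or JG342 replicate 2 (0.136 to 0.184), and MYH10 and SPTBN1 not without any 1 of the 4 (0.0513 to 0.220 and 0.0737 to 0.178). ACTB, the highest of the list, was at 3758.63 and 4472.29 TPM with DMSO and at 3052.72 and 4223.97 TPM with JG342, overlapping groups with a difference of −0.19 ± 0.16 SE (limma adjusted p 0.426).

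Of 11 fitted genes of intermediate filaments and plakin linkers, 1 passed as higher and 2 as lower. The nuclear lamins LMNB1 and LMNB2 fell by 0.82 ± 0.15 SE and 0.43 ± 0.10 SE (limma adjusted p 0.0069 and 0.0186), LMNB1 from 143.81 and 186.77 TPM to 83.12 and 102.29 TPM. The gene counted as higher was PRPH, peripherin, the neuronal relative of VIM, named after its values were seen, at 0 and 0.12 TPM with DMSO and at 1.75 and 3.45 TPM with JG342. It reached the mean of 1 TPM through the JG342 libraries alone, so its p-value is not given and its call supports nothing. LMNB1 did not pass without DMSO replicate 2 (adjusted p 0.0505, limma), and LMNB2 passed with all 4 libraries and without JG342 replicate 1, but not without any of the others (adjusted p between 0.0679 and 0.127). In the list of plasminogen activation at the cell surface, in which ANXA2 and S100A10 act as a receptor, 1 of 4 fitted genes passed. PLGRKT, a plasminogen receptor, rose from 27.36 and 26.38 TPM to 44.36 and 38.6 TPM, by 0.60 ± 0.12 SE (limma adjusted p 0.0101, and 0.0716 without DMSO replicate 2), while ENO1, a glycolytic enzyme that also binds plasminogen, differed by −0.37 ± 0.13 SE and did not pass (limma adjusted p 0.0800). Without JG342 replicate 2 it differed by −0.54 and passed (limma adjusted p 0.0197), and without JG342 replicate 1 it differed by −0.21. None of the 5 fitted genes for partners of AHNAK passed in the limma fit, with 1 at an unadjusted p under 0.05. PLCG1, a phospholipase that AHNAK binds and the highest of them, was at 30.14 and 26.4 TPM with DMSO and at 31.09 and 25.94 TPM with JG342, a difference of 0.01 ± 0.13 SE (limma adjusted p 0.971). Genes on the opposite strand overlap exons of PLCG1 and of ENO1, and reads from that strand cannot be told apart without strand information.

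**Figure D5:**
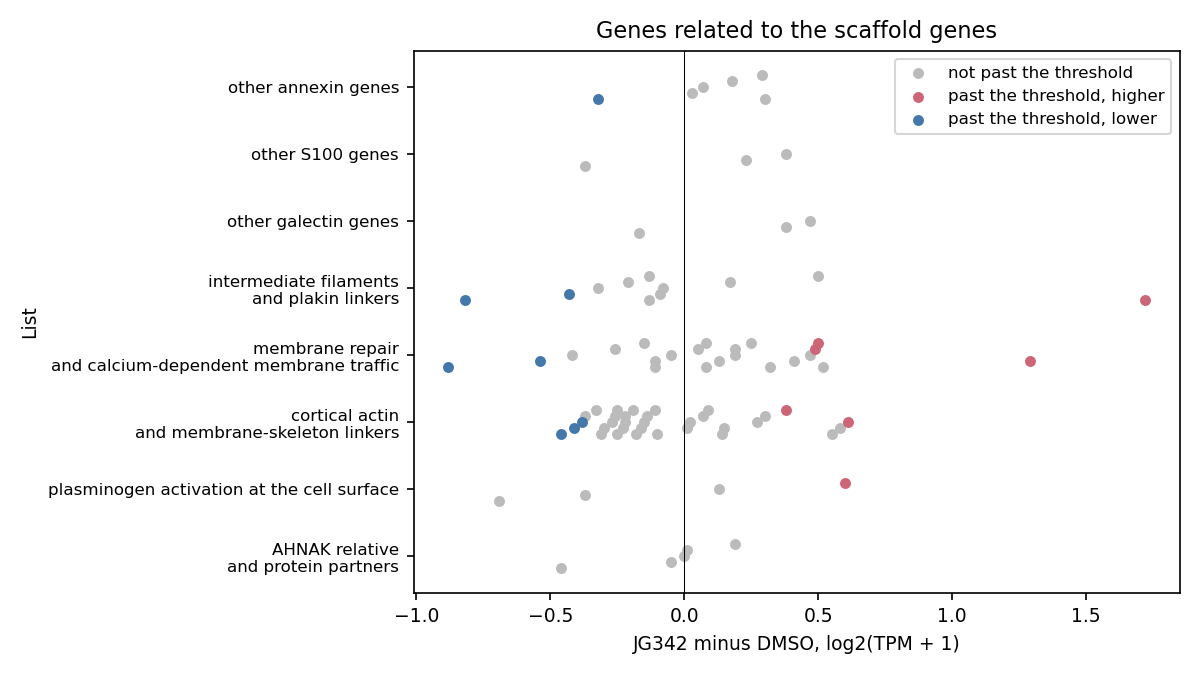
Difference JG342 minus DMSO on the log2(TPM + 1) scale for each of the 87 fitted genes of the 8 related lists, 1 point per gene (vertical offsets only separate points), red and blue where the gene passed as higher or lower. Of the 87 genes, 15 passed, and the coloured points lie on both sides of 0.

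The genes whose profile over the 4 libraries was most like that of AHNAK were sought by the distance between mean-centred log2(TPM + 1) values, among genes averaging 5 TPM or more. They were PCP4, PCDH1, ID1, HEMGN and IFI30, at distances of 0.090, 0.106, 0.144, 0.234 and 0.278. PCP4, a small calmodulin-binding protein, was at 365.73 and 483.14 TPM with DMSO and at 142.04 and 174.54 TPM with JG342. PCDH1, a protocadherin of cell adhesion, was at 13.31 and 18.92 TPM and then at 4.97 and 5.59 TPM. ID1, an inhibitor of helix-loop-helix factors, was at 10.26 and 15.31 TPM and then at 3.72 and 4.23 TPM. Like AHNAK, all of them were lower in both JG342 libraries and higher in the library numbered 2 of each treatment. This follows largely from how they were picked and is not a separate finding. With 4 libraries, a likeness of this kind describes these libraries only.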

How the data were processed

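RNA sequencing of 4 MM.1S libraries (2 DMSO, 2 JG342) was analysed from 1 table of the authors. Its deposited values were taken as TPM because the 4 libraries sum to nearly the same total (994463 to 994718), and no further scaling was seen. HISAT2 2.0.4, Bowtie2 2.2.5 and RSEM 1.2.12 are named in the submitters' processing notes, without roles. The genome build, annotation and strand setting are not given in the sources used here, so gene coordinates are not given; promoter sequences and their coordinates are RefSeq's (GRCh38.p14).

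Genes averaging 1 TPM or more over the 4 libraries (12042 of 16057) were fitted on log2(TPM + 1) with limma 3.58.1 in R 4.3.3 (treatment only, eBayes with trend, two-sided, Benjamini-Hochberg over all fitted genes, threshold 0.05). No count model was used. An exact permutation test of 2 against 2 libraries cannot go below p = 0.333. On simulated data with 12042 genes, 98% of 100 genes changed by 1 and 100% of 100 changed by 2 on the log2 scale were recovered, with 4.35% of calls false. The simulated noise was normal, independent between libraries and equally wide for genes of similar level, and only better-expressed genes were changed. Genes with a wider spread of their own and paired libraries were not simulated, so these rates may not hold for the real data. TPM keeps no depth, so no counting intervals are given. Whether the duplicates came from separate cultures is not stated beyond the word biological, so p-values refer to these libraries only. Each SE and p-value rests on limma's moderated variance, which in the main fit combines a gene's own spread with a trend over all fitted genes. The main fit had 2 residual and 6.89 prior degrees of freedom. GENCODE 29 transcripts were searched for near-identical copies using BLAST 2.17.0 (identity of at least 95% over at least 20%).

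The members and lists were chosen with earlier results of these data known. Named related genes are, per list, up to 3 rises and 3 falls past the threshold that average 5 TPM or more, and the gene of highest level; ANXA5, LGALS3 and PRPH were added after their values were seen. Alternatives were other pseudocounts, filters, scalings and variance models, the replicate number as a block, and leaving out each library.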

Additional observations from a re-analysis of the deposited data

How the results depend on the processing

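The difference of each scaffold gene kept its sign in all 13 alternatives, except S100A6, which ranged from −0.91 to 0.18 when libraries were left out in turn and was 0.18 without DMSO replicate 2. The ranges without 1 library were −1.61 to −1.27 for AHNAK, 1.0 to 2.2 for ANXA1, 0.46 to 0.51 for S100A11, 0.41 to 0.73 for VIM, 0.08 to 0.36 for LGALS1, −0.21 to −0.09 for ANXA2 and −0.33 to −0.24 for S100A10. Fitting every gene without a filter on low values left 828 of 16057 genes past the threshold (5.16%), in place of 2221 of 12042 (18.4%). In that fit 1 of the scaffold genes (AHNAK) passed in place of 4. Of the related genes, 9 of 126 passed (7.14%) in place of 15 of 87 (17.2%). Without the mean-variance trend 8 of 87 related genes passed (9.2%), against 12.5% of all fitted genes. Leaving out 1 library gave 767 to 1825 genes in all, 1 to 4 scaffold genes and 7 to 15 related genes; the lowest totals were 767 without DMSO replicate 2 and 1046 without DMSO replicate 1, and the lone library was assumed to vary like the other treatment. After median scaling 966 genes were higher and 1200 lower, against 1304 and 917, and VIM no longer passed. VIM also did not pass without the mean-variance trend or without the filter on low values. Without DMSO replicate 1, ANXA1 (difference 1.38), S100A11 (0.51) and VIM (0.59) did not pass. Neither did S100A11 (0.46) and VIM (0.55) without DMSO replicate 2. ACTB ranged from −0.43 to 0.04 when libraries were left out, and PLCG1 was −0.06 with median scaling, −0.04 after quantile normalization and between −0.12 and 0.14 when libraries were left out. ANXA6, LMNB2, CHMP4A, MYL12A, MYH10, TAGLN2 and SPTBN1 each lost their call in at least 5 alternatives, and CAV1, CHMP4B and CHMP4C in none. ENO1 gained a call without JG342 replicate 2 and with the block (with and without median scaling), S100A13 without JG342 replicate 2 and with the block, and ACTB with the block.

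The labels share replicate numbers between treatments, and the descriptions of same-numbered libraries open with the same prefix, which could be a date of a shared experiment but is not explained. The deviations of same-numbered libraries correlated across genes with r = 0.27. Whether the numbers pair the libraries, and so whether the blocked fit is the better one, cannot be settled from these sources. A fit that takes this number as a block (replicate block) passed 4207 genes, 7 scaffold genes and 40 related genes, which is 46.0% of the related genes against 34.9% of all fitted genes, where the unblocked shares are 17.2% and 18.4%; with the replicate block and median scaling, 3985, 6 and 33, and PLCG1 was −0.06. The block leaves 1 residual degree of freedom. Without median scaling its prior degrees of freedom were infinite, so each SE of that fit came from the trend alone, without a gene's own spread. With median scaling they were 7.49. The part of this in the larger counts was not tested. ANXA3, ANXA13, S100A2, S100A5, S100A9 and S100P did not exceed 0.97 TPM in any library; in the limma fit without a filter, 0 of these 6 passed, and 0 had an unadjusted p under 0.05.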
